A study of Mus musculus with 12 samples.

Results

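The 8 genes described here encode transcription factors of the neural plate border and the neural crest, namely Zic1, Msx1, Msx2, Tfap2b, Foxd3, Snai2, Sox9 and Sox10. They were taken by gene symbol out of 38911 genes, after the counts of all RefSeq transcripts of a gene had been added up, and all 8 had counts in at least 1 library. The data are polyA RNA-seq of mouse gastruloids, aggregates of embryonic stem (ES) cells that break symmetry and elongate in culture. Each gastruloid was started from 200 cells of the line E14TG2a grown in 2i and LIF, treated from day 3 to day 4 and harvested on day 4, and the gastruloids of 1 plate were pooled for a library. The 4 groups were 1× glucose (21.25 mM), no glucose (0×), 3× glucose (63.75 mM) and 5 mM 2-deoxy-D-glucose (2-DG, a glucose analog that competes for hexokinase) in 1× glucose medium. Each group held 3 libraries, 1 from each of ES cell passages 13, 15 and 16, so that 1 cell line is represented and the replicates differ in passage.

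The neural plate border is the strip of ectoderm between the future neural tube and the future epidermis. Bone morphogenetic protein (BMP), Wnt and FGF signals induce border factors of the Zic, Msx, Pax3/7 and Tfap2 families there. These factors in turn switch on the crest specifiers Foxd3, Snai2, Sox9 and Sox10, after which crest cells leave the neural tube and form pigment cells, peripheral neurons, glia and much of the skull. None of the 8 genes is restricted to the crest. Foxd3 also acts in pluripotent cells, Msx1 and Msx2 respond to BMP in many tissues, Zic1 is used in neural tube and somites, and Sox9 is also a regulator of neural stem cells and cartilage.

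Library totals ranged from 31902471 to 45956080 counts. Among genes with a mean of at least 10 counts, no pair of libraries shared more than 1.88% identical counts. The labels call the cells embryonic stem cells, and of the pluripotency genes Pou5f1 was present at 20.3 to 53.1 CPM (counts scaled to library size with the TMM factors of edgeR) and Nanog at 1.02 to 5.12 CPM. Genes of differentiated tissue were present beside them, such as the paraxial mesoderm gene Foxc1 at 87.6 to 279 CPM. Of the genes that define established crest, Dct, an enzyme of pigment cells, was at 0 in all 12 libraries, which allows up to 3 counts or 0.0648 to 0.0947 CPM in a library, and Cdh19 had 2 counts in 1 library. In bulk RNA, a lower value can stand for fewer expressing cells or for less RNA per cell, and these cannot be told apart.

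The 8 genes covered a wide range of levels. Per kilobase of transcript in 1× glucose, Msx1 was the most abundant at 17.04 ± 10.9 CPM per kb (SD, n = 3), ahead of Zic1 at 6.12 ± 2.00 and Sox9 at 2.77 ± 1.09. Snai2 followed at 0.780 ± 0.296 CPM per kb, and then Msx2 at 0.240 ± 0.0369 and Foxd3 at 0.225 ± 0.185. From Msx1 down to Msx2, the ranges of neighbours in this order did not overlap in 1× glucose, whereas those of Msx2 and Foxd3 did. In the 2-DG libraries Sox9 stood at 9.11 ± 1.27 CPM per kb and Zic1 at 6.91 ± 1.46, and their ranges overlapped. The ratio of Sox9 to Zic1 per kilobase was 0.922, 1.53 and 1.66 in the 2-DG libraries of passages 13, 15 and 16, and 0.182 to 0.849 in the other 9 libraries.

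Tfap2b, an AP-2 border and crest factor, and Sox10, the factor that marks migrating crest and its glial and pigment derivatives, were at the limit of detection. Sox10 had 3, 0 and 2 counts in 1× glucose at passages 13, 15 and 16, and 3, 0 and 0 in 2-DG. In 0× glucose it had 4, 3 and 0 counts, and in 3× glucose 4, 0 and 4. Tfap2b had 0 to 5 counts per library, with 21 counts in all 12 libraries together and 0 in 4 of them. Both were removed by the filter on low counts, no fold change is given for them, and a difference between treatments was not detectable at this depth. The other 6 genes passed the filter and were tested among 16966 genes.

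Promoter sequences of the 4 tested genes found in the RefSeq promoter table of the assembly GRCm38.p6 are shown, because Msx1 and Foxd3 lay at opposite ends between passages and Msx2 and Zic1 belong to the same border tier. Each is the 250 bases before the start site, written 5′ to 3′ on the strand of the gene. Capitals mark a match to 1 of 5 motifs searched, and lower case all other bases.
Msx1 (chr5:37824586-37824835, minus strand): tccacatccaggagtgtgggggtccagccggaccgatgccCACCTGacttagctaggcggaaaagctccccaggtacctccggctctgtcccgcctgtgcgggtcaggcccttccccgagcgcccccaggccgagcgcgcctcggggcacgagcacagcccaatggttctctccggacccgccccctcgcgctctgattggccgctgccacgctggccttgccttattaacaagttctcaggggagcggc
Msx2 (chr13:53472781-53473030, minus strand): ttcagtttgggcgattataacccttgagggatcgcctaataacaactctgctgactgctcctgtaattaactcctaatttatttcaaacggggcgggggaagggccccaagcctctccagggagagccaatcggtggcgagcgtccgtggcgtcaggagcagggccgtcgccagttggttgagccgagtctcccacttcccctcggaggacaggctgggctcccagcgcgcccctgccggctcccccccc
Zic1 (chr9:91365769-91366018, minus strand): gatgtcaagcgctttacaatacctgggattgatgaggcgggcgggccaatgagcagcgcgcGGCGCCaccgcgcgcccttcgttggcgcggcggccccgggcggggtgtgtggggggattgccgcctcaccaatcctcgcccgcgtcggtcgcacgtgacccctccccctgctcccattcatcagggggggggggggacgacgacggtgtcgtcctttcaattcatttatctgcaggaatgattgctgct
Foxd3 (chr4:99656049-99656298, plus strand): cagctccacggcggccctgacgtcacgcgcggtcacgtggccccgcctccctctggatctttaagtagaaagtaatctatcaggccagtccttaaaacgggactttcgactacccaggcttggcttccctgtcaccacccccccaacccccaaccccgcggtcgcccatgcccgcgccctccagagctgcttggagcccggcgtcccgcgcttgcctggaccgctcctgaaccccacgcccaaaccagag
The motifs were CTTTGA (TCF/LEF core), GGCGCC (BMP-responsive Smad element), CAGGTG (Snail-type E-box), AACAAT (SOX core) and TGATGNAA (ATF4-type element). They were searched on both strands of the window from 250 bases before to 50 bases after the start site. The Snail-type E-box occurred once in Msx1, at position -210 from the start site and on the opposite strand, so that the strand shown reads CACCTG. The Smad element occurred once in Zic1, at position -189. Of the 32851 promoters in the table, 20.2% held the E-box and 11.9% the Smad element, and 16.003%, 10.7% and 3.97% held the TCF/LEF, SOX and ATF4-type letters. Msx2 and Foxd3 held none of the 5 in this window. The GC content was 70.0% in Msx1, 65.7% in Foxd3, 65.3% in Zic1 and 61.0% in Msx2, against a median of 52.7% over the table. Of the 8 genes 5 matched the table, Tfap2b being the other, and Sox9, Sox10 and Snai2 did not match.

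**Figure D1:**
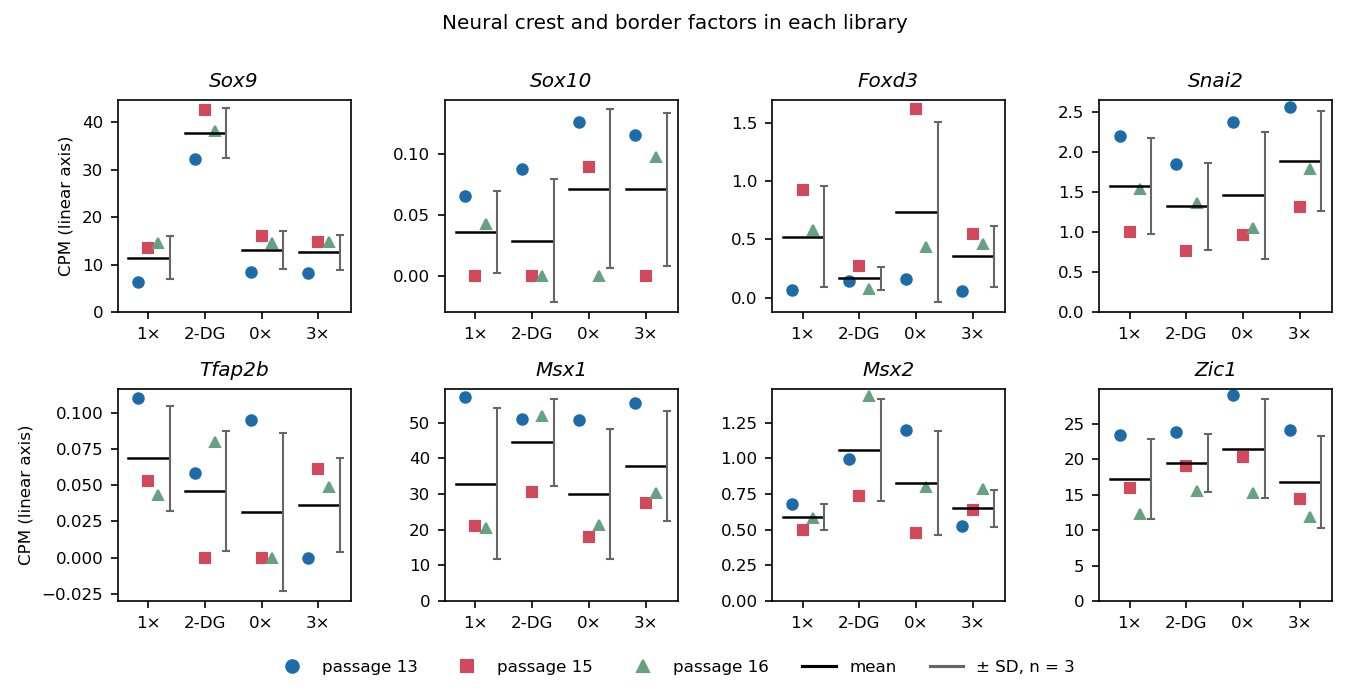
CPM (linear axes) of the 8 genes in each of the 12 libraries, by treatment, with a symbol for each ES cell passage, the group mean as a black line and the SD (n = 3) as a grey bar. Sox9 in the 3 libraries with 2-DG, at 32.2 to 42.7 CPM, sits above the other 9 libraries, whereas Msx1, Zic1 and Snai2 separate mainly by passage and Sox10 and Tfap2b lie near 0.

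The comparison of 2-DG with 1× glucose asked how the inhibitor altered the gastruloids in unchanged medium. Of the 6 tested genes, 1 changed, Sox9, which rose, beside 17.6% of all genes tested (2990 of 16966, edgeR quasi-likelihood test with Benjamini-Hochberg adjustment and a threshold of 0.05). With the passage as a replicate block, Sox9 and Msx2 rose and Foxd3 fell, so that 3 of 6 changed, beside 41.3% of all genes. The share of changed genes is thus close to the background in both fits, given only 6 genes. The median log2 fold change of the 6 was 0.30, and that of all genes 0.0023.

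Sox9 lies at chr11:112782210-112787757 (GRCm38), and the counts came from 1 transcript. It had 6.26, 13.5 and 14.6 CPM in 1× glucose at passages 13, 15 and 16, and 32.2, 42.7 and 38.1 CPM in 2-DG. The lowest 2-DG library was above the highest of all other libraries. In 2-DG the mean was 37.7 ± 5.25 CPM, against 11.4 ± 4.53 CPM in the controls (SD of 3 libraries each). On the log2 scale the change was 1.72 (95% interval 0.96 to 2.47, standard error 0.34, edgeR adjusted p = 0.00741). With the block it was 1.80 (95% interval 1.48 to 2.11, edgeR adjusted p = 9.87e-06). Within passages 13, 15 and 16 the ratio of 2-DG to 1× glucose was 5.15, 3.17 and 2.61, so the direction was the same in 3 of 3. With all libraries of passage 15 left out the edgeR adjusted p was 0.137, and with those of passage 16 left out it was 0.0891, at log2 fold changes of 1.74 and 1.92.

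Some neural progenitor markers also passed the threshold in the comparison in which Sox9 rose. Without the block 5 of 10 such genes rose (Irx3, Sox1, Irx5, Pax6 and Ncam1) and none fell, beside 17.6% of all genes called, and with the block 7 rose and 1 fell, beside 41.3%. Nes, of the same list, was not called without the block and lay lower, at 68.2 to 85.4 CPM in 2-DG and 91.2 to 124.8 CPM in 1× glucose. Sox2, Sox3, Sox21 and Hes5 overlapped between these groups. The list summed to 372 to 615 CPM in 2-DG and to 293 to 461 CPM in 1× glucose, with no member at 0. Of genes used in sclerotome, where Sox9 also acts, Pax1 was at 0 in 10 of 12 libraries and Pax9 in 1, and Uncx had 10 to 445 counts. The part of neural or sclerotome cells in the value of Sox9 was not tested.

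The border factors Zic1 and Msx1 overlapped between 2-DG and 1× glucose. Zic1 (chr9:91358058-91365768), a zinc finger factor that acts in the border and the dorsal neural tube, had 23.3, 15.97 and 12.3 CPM in 1× glucose at passages 13, 15 and 16 and 23.7, 19.0 and 15.6 CPM in 2-DG. Its log2 fold change was 0.18 (95% interval -0.54 to 0.89, edgeR adjusted p = 0.767). With the block it was 0.21 (95% interval 0.02 to 0.39, edgeR adjusted p = 0.0752), and the ratio of 2-DG to 1× glucose was 1.02, 1.19 and 1.27 within passages 13, 15 and 16. Msx1 (chr5:37820491-37824585), a homeobox factor induced by BMP, had 57.3, 21.1 and 20.5 CPM in 1× glucose and 51.2, 30.5 and 51.9 CPM in 2-DG. The ratio of 2-DG to 1× glucose was 0.894 within passage 13, 1.44 within passage 15 and 2.53 within passage 16, so passage 13 did not go with the others. The log2 fold change of Msx1 was 0.43 (95% interval -0.66 to 1.53, edgeR adjusted p = 0.612) and, with the block, 0.58 (adjusted p = 0.0514). Without the libraries of passage 13 it was 0.99 (edgeR adjusted p = 0.0167). Without those of passage 15 it was 0.40 (edgeR adjusted p = 0.789), and without those of passage 16 it was 0.04 (0.984). The antisense gene Msx1os, which lies over Msx1, had 21.8% to 47.8% as many counts as Msx1, and how the authors' counting treated strand is not given in the sources used here.

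Msx2 (chr13:53466881-53472780), the paralog of Msx1, was far less abundant, and Msx1 stood 33.5 to 135 times above it per kilobase in the 12 libraries. It had 31, 19 and 27 counts in 1× glucose at passages 13, 15 and 16, and 34, 27 and 54 counts in 2-DG. In CPM these were 0.681, 0.4999 and 0.583 against 0.995, 0.736 and 1.44, and the 2 groups did not overlap. The log2 fold change was 0.84 (95% interval 0.08 to 1.60, unadjusted p = 0.0340 and adjusted p = 0.122 by edgeR), and with the block Msx2 rose by 0.83 (adjusted p = 0.0349). The ratio was 1.46, 1.47 and 2.47 within the 3 passages.

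Among the crest specifiers, Foxd3 passed the threshold in 2-DG against 1× glucose only with the block, and Snai2 in neither fit. Foxd3 (chr4:99656299-99658671), a forkhead repressor needed for crest and pluripotent cells, had 3, 35 and 27 counts in 1× glucose at passages 13, 15 and 16 and 5, 10 and 3 counts in 2-DG. The 2-DG library was lower at passages 15 and 16, and at passage 16 its 3 counts were at the detection limit. Both groups were near the detection limit at passage 13. The log2 fold change was -1.62 (95% interval -3.97 to 0.74, edgeR adjusted p = 0.338), and with the block Foxd3 fell by 1.57 on the log2 scale (adjusted p = 0.0487). Snai2 (chr16:14705852-14709395), the zinc finger repressor Slug that acts when crest cells detach, had 100, 38 and 71 counts in 1× glucose and 63, 28 and 51 in 2-DG. Those counts correspond to 2.20, 1.00 and 1.53 CPM against 1.84, 0.763 and 1.36 CPM, lower in 2-DG in each passage by ratios of 0.840, 0.763 and 0.886. The log2 fold change of -0.26 was not past the threshold without the block (edgeR adjusted p = 0.745) or with it (0.233).

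**Figure D2:**
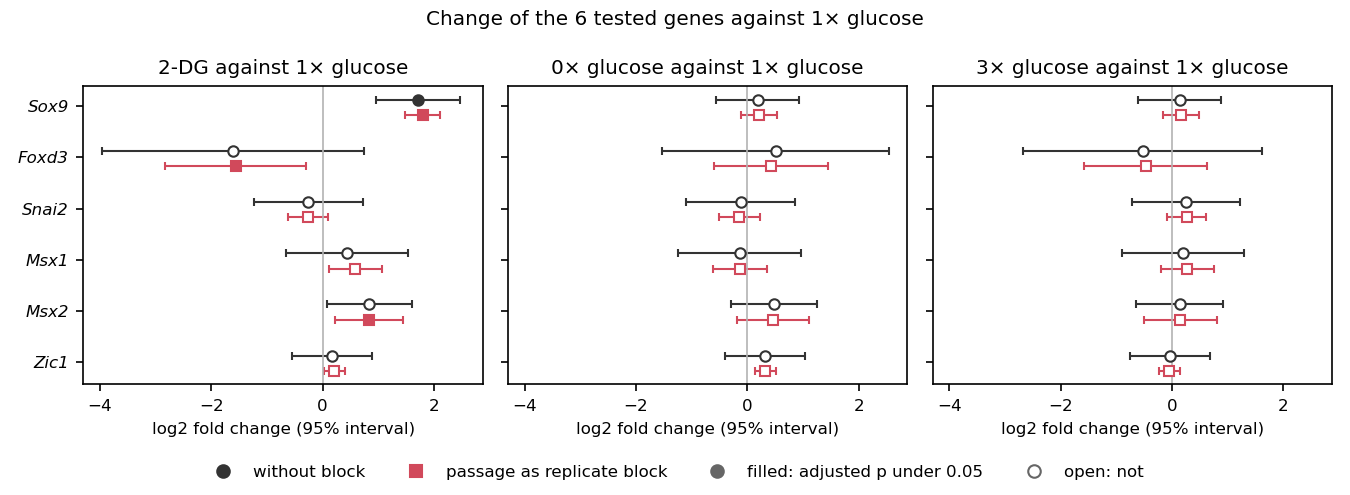
Log2 fold change (linear axis, bars are 95% intervals) of the 6 tested genes in 2-DG, 0× and 3× glucose against 1× glucose, without a term for the passage (circles) and with the passage as a replicate block (squares), filled where the edgeR adjusted p was under 0.05. Sox9 in 2-DG is filled in both fits, Msx2 and Foxd3 in 2-DG only with the block, and no symbol is filled in 0× or 3× glucose.

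The libraries in 0× and 3× glucose asked whether removing or adding glucose did what 2-DG did. None of the 6 genes passed the threshold in 0× glucose, beside 0.0118% of all genes (2 of 16966), or in 3× glucose, beside 0% (0 of 16966). At an unadjusted p under 0.05 there were also 0 of 6 in each comparison by edgeR, beside 306 of 16966 genes in 0× and 178 in 3× glucose. DESeq2 called 0 of 6 at the adjusted threshold, beside 12 and 2 of 16966 genes. With the replicate block the count was 0 of 6 in both, beside 0.0177% and 0% of all genes. At an unadjusted p under 0.05 in this fit it was 1 in 0× glucose and 0 in 3× glucose. The share of all genes at that cutoff was not taken with the block.

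Sox9 had 8.43, 15.95 and 14.6 CPM in 0× glucose at passages 13, 15 and 16 and 8.33, 14.7 and 14.7 CPM in 3× glucose. These lay close to the 1× libraries of the same passage, with log2 fold changes of 0.18 (95% interval -0.56 to 0.93) and 0.14 (-0.61 to 0.88). Zic1 had 29.0, 20.3 and 15.2 CPM in 0× glucose, and 24.1, 14.4 and 11.8 CPM in 3× glucose. In 0× glucose it was higher than in 1× glucose within each passage, by ratios of 1.24, 1.27 and 1.24. It was the 1 gene counted above at an unadjusted p under 0.05 in the edgeR fit with the block (unadjusted p = 0.00321, adjusted p = 0.369). Msx1 had 50.9, 17.9 and 21.2 CPM in 0× glucose and 55.6, 27.5 and 30.3 CPM in 3× glucose. Msx2 had 1.199, 0.478 and 0.801 CPM in 0× glucose and 0.522, 0.640 and 0.783 CPM in 3× glucose, both overlapping with 1× glucose. Foxd3 had 5, 54 and 14 counts in 0× glucose and 2, 18 and 19 counts in 3× glucose. Its intervals were the widest of the 6 genes, from -1.53 to 2.55 in 0× and from -2.67 to 1.62 in 3× glucose. Snai2 had 75, 32 and 34 counts in 0× glucose and 88, 43 and 73 counts in 3× glucose, with log2 fold changes of -0.12 (95% interval -1.10 to 0.86) and 0.25 (-0.71 to 1.21).

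2-DG was also set against 0× glucose, the group without the sugar itself. Again 1 of the 6 genes changed, Sox9, beside 18.9% of all genes tested (3207 of 16966), with a log2 fold change of 1.53 (standard error 0.34, 95% interval 0.78 to 2.29, edgeR adjusted p = 0.0115). The ratio of 2-DG to 0× glucose for Sox9 was 3.82, 2.68 and 2.61 within passages 13, 15 and 16. In this comparison Sox9 missed the threshold with the most abundant transcript of each gene in place of the sum (edgeR adjusted p = 0.0508), and without the libraries of passage 15 (0.139) or of passage 16 (0.122). Sox9 has 1 transcript, so in the first of these settings its own counts were the same and only those of other genes differed. With the replicate block 3 of 6 changed, beside 43.1% of all genes: Sox9 and Msx1 rose, by 1.59 and 0.71, and Foxd3 fell by 2.00 on the log2 scale (edgeR adjusted p = 1.73e-05, 0.0232 and 0.0158).

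Between passages, 5 of the 6 genes differed, all but Msx2, beside 46.2% of all genes tested (7840 of 16966, edgeR F test of the passage terms with the treatment in the fit). Msx1, Zic1 and Snai2 were highest at passage 13, and Sox9 and Foxd3 lowest there. Each passage is 1 set of 4 libraries, and the passage cannot be told apart from anything else that differed between the sets.

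Msx1 had 50.9 to 57.3 CPM in the 4 libraries of passage 13, 17.9 to 30.5 in those of passage 15 and 20.5 to 51.9 in those of passage 16 (edgeR adjusted p = 0.000999). The 1 library of passage 16 that reached the level of passage 13 was that with 2-DG. Zic1 had 23.3 to 29.0 CPM at passage 13, 14.4 to 20.3 at passage 15 and 11.8 to 15.6 at passage 16, without overlap between passage 13 and the others (edgeR adjusted p = 2.69e-05). Snai2 had 1.84 to 2.55 CPM at passage 13, above all libraries of passages 15 and 16, which spanned 0.763 to 1.31 and 1.05 to 1.79 CPM (edgeR adjusted p = 0.000301). Foxd3 was close to the detection limit in every library of passage 13, with 2 to 5 counts. At passage 15 it was 2.89 higher on the log2 scale (standard error 0.50) and at passage 16 1.88 higher (0.55), with an edgeR adjusted p over both terms of 0.00283. Sox9 was 0.79 higher at passage 15 and 0.75 higher at passage 16 than at passage 13 (edgeR adjusted p = 0.000920), so in the 3 groups without 2-DG its range was 6.26 to 8.43 CPM at passage 13 and 13.5 to 15.95 CPM at the later ones. Msx2 had the smallest differences relative to their error, with values of -0.51 (standard error 0.26) at passage 15 and 0.07 (0.24) at passage 16 (edgeR adjusted p = 0.151).

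**Figure D3:**
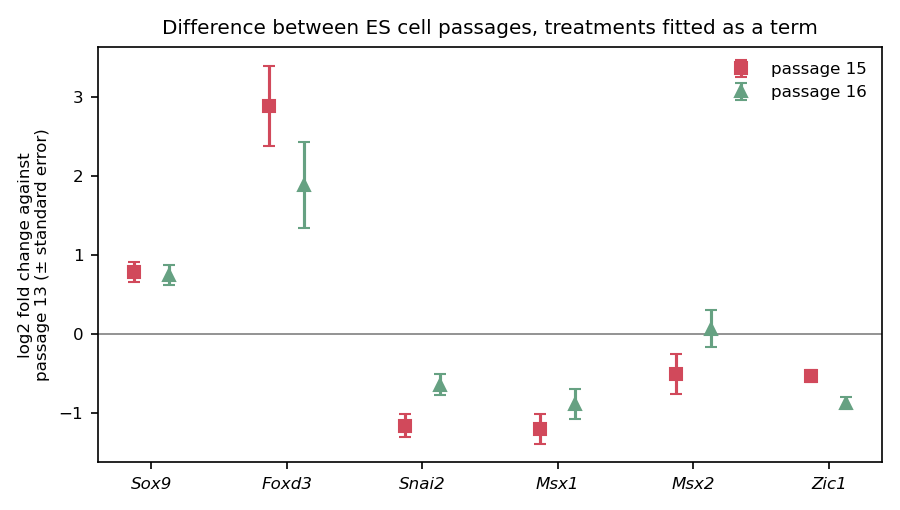
Log2 fold change of the 6 tested genes at passages 15 and 16 against passage 13 (linear axis, bars are standard errors), with the treatment as a term in the fit over 12 libraries. Snai2, Msx1 and Zic1 lie below 0 at both passages, Sox9 and Foxd3 above 0, and Msx2 close to 0 at passage 16.

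Markers of other tissues differed between the passages as well. Of 12 tested genes of paraxial mesoderm and somites 11 differed, beside 46.2% of all genes, and the 13 listed genes summed to 667 to 793 CPM at passage 13, 1406 to 1802 at passage 15 and 1077 to 1500 at passage 16. Of 10 neural progenitor markers 9 differed, and they summed to 440.5 to 615, 304 to 427 and 264 to 372 CPM. Pax1 of the first list was at 0 in 10 of 12 libraries. Whether the makeup of the gastruloids set the passage differences of Msx1, Zic1, Snai2, Sox9 and Foxd3 was not tested.

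Among other border factors and crest specifiers, the share called with 2-DG was near the 17.6% of all genes. Of 16 other border factors 3 rose and none fell, namely the homeobox genes Dlx3 (log2 fold change 2.60) and Dlx5 (1.35), which act at the outer, placodal side of the border, and the AP-2 factor Tfap2c (1.58), also a gene of surface ectoderm and germ cells. Dlx3 was the clearest of these, with 1.12 to 1.60 CPM in 1× glucose and 7.38 to 8.31 CPM in 2-DG. Pax3 and Pax7, partners of Zic1 at the border, had log2 fold changes of -0.25 and 0.48 and did not pass the threshold. Of 12 other crest specifiers none rose and 2 fell, Mycn by 0.66 and Sox8, a relative of Sox9 and Sox10, by 0.65 on the log2 scale. The border factors had a median log2 fold change of 0.38 and the specifiers one of -0.19. With the replicate block 8 border factors were higher and 1 lower, and 2 specifiers were higher and 5 lower, beside 41.3% of all genes called.

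Genes of crest migration and derivatives had 3 higher and 1 lower of 12 tested of 15 listed, beside 17.6% of all genes called. With the block 5 were higher and 2 lower, beside 41.3% of all genes. The same shares of all genes apply to the other lists of this paragraph. The endothelin receptor Ednrb rose by 3.55 on the log2 scale, from 0.173 to 0.483 CPM in 1× glucose to 1.52 to 9.08 CPM in 2-DG, the neuregulin receptor Erbb3 by 1.11 and the GDNF receptor Ret by 0.50, while the cadherin Cdh11 fell by 1.30. As background, all 3 receptors are also used in tissues other than crest. Surface ectoderm markers, the tissue on the other side of the border, had 0 called of 4 tested of 6 listed without the block, and 3 higher and 0 lower with it, at a median log2 fold change of 1.27. They summed to 37.7 to 39.7 CPM in 2-DG and 26.3 to 45.998 in 1× glucose. Trp63 and Krt14, defining genes of that tissue, were each at 0 in 11 of 12 libraries. Krt5 had 0.506 to 1.11 CPM in 2-DG and 0 to 0.198 CPM in 1× glucose, Krt15 0.644 to 1.498 against 0.176 to 0.552 CPM, and Grhl2 1.93 to 3.04 against 0.947 to 1.73 CPM. Grhl3, the most abundant gene of this list, overlapped between the groups, with 33.4 to 34.7 CPM in 2-DG and 24.8 to 44.0 CPM in 1× glucose. Of the markers of other tissues, without the block, 1 rose and 1 fell of 12 pluripotency genes (Tfcp2l1 at 1.05 and Dppa5a at -1.01 on the log2 scale), 0 of 12 changed in paraxial mesoderm, 1 of 8 rose in lateral plate mesoderm (Prrx1, 0.68), and Trh fell by 1.26 among the endoderm genes. With the block 5 pluripotency genes were higher and 2 lower, 1 paraxial mesoderm gene was higher and 5 lower, and 1 lateral plate gene was higher and 1 lower.

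Of the signals that induce the border, 11 of 12 listed ligands and antagonists were tested. In 2-DG 2 rose and 4 fell, beside 17.6% of all genes called, and with the block 4 rose and 4 fell, beside 41.3%. By size of the log2 fold change, the first 4 were the ligand Wnt3a (-2.72), the BMP antagonist Nog (-2.14), the ligand Bmp2 (-1.80) and the ligand Wnt3 (0.94). Among 11 direct BMP targets other than Msx1 and Msx2, 1 fell, Bambi (-0.58), and none rose, beside 17.6% of all genes called. With the block 3 of these targets were lower and 0 higher, beside 41.3% of all genes called. Msx2 was higher in the same fit. In 0× and 3× glucose 0 genes of all these lists passed the threshold, with and without the block. Across passages the border factors differed in 11 of 16 cases, the specifiers in 11 of 12 and the inducing signals in 9 of 11, beside 46.2% of all genes.

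**Figure D4:**
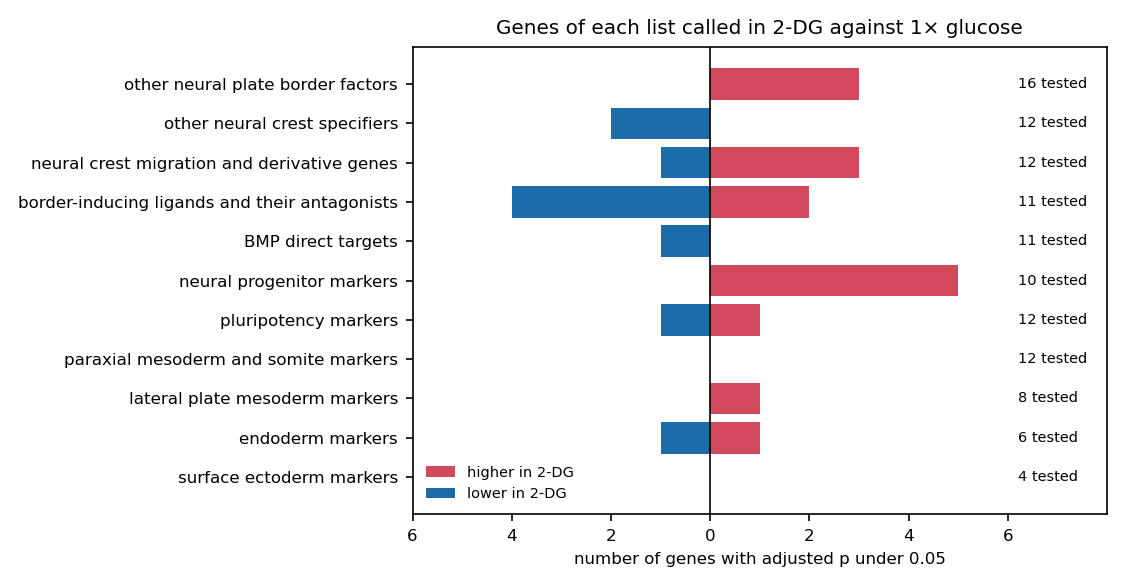
Number of genes in each list that passed the edgeR threshold in 2-DG against 1× glucose without the block, higher to the right and lower to the left, with the number tested at the right edge. Neural progenitor markers have 5 higher of 10 tested and none lower, other border factors 3 higher of 16, and other crest specifiers 2 lower of 12.

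Patterns over the 12 libraries were compared by Pearson correlation of log2 CPM, as a description over libraries that share treatments and passages. The genes most like Sox9 were Slc22a23 (r = 0.992), Txndc11 (0.989) and Sec24c (0.989). Those most like Foxd3 were Itga9 (0.960), Nfya (0.959) and Tbc1d1 (0.956), and those most like Snai2 were Mycl (0.970), Gm40881 (0.967) and Rtn2 (0.966). Msx1 was closest to Zfp534 (0.978), Doc2a (0.972) and 6430548M08Rik (0.968), and Zic1 to Aldoa (0.950), Loxl2 (0.949) and Vps8 (0.935). For Msx2 the highest values were lower, 0.862 with Mansc1, 0.857 with 2210016L21Rik and 0.851 with Trmt9b. Among the 6 genes themselves, Foxd3 and Msx1 ran in opposite directions (r = -0.945), Snai2 and Msx1 in the same (0.730), and Sox9 had r of -0.110 with Msx1 and 0.0755 with Foxd3.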

How the data were processed

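PolyA RNA of 12 gastruloid libraries (3 per group) was analysed. The authors deposited 1 file per library with estimated counts of 120312 RefSeq transcripts, all whole numbers, made with Trim Galore, HISAT2, Picard and StringTie on mm10 per the labels and methods, with versions and strand setting not given in the sources used here. Tables of log2 fold changes and adjusted p-values that the authors also deposited were not used. Transcripts were joined to genes by the RefSeq table of GRCm38.p6, which named 100% of the counts, and summed. Counts were used without rounding.

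The 4 groups were fitted together with edgeR 4.0.16 in R 4.3.3 (TMM, filterByExpr, glmQLFit and glmQLFTest, two-sided, Benjamini-Hochberg over 16966 genes, threshold 0.05), without a term for the passage, and passages were tested in an additive fit with the treatment. Intervals are at 95%. The fits were tested on simulated data, with the spread of the fit with the block and no passage differences beyond those put in. The common dispersion, edgeR's measure of spread, was 0.00630 with the block and 0.0316 without it. The simulation therefore does not show how the fit without the block performs on data with passage differences. The labels give replicates of different groups the same ES cell passage, so the passage pairs them. Deviations from the group means correlated at 0.0963 to 0.623 in 18 same-passage pairs and at -0.440 to 0.191 in 36 pairs of different passages, and the fit with the passage as a replicate block is given beside the results of the 8 genes whose call it changed and beside list counts in 2-DG against 1× glucose. For single genes, exact permutation of 3 against 3 libraries cannot give a p below 0.1. Nothing says that libraries of 1 passage came from separate cultures, so p-values measure the spread between these libraries.

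The 8 genes and the 11 lists (121 genes, 4 of them in 2 lists) were chosen with earlier results of these data known, and the lists come from general knowledge. All 8 genes are given, and from each list up to 4 called genes with the largest log2 fold change, beside some named for their relation to the 8, which were chosen after their values were seen. The 3 genes most like each of the 6 tested genes were taken by Pearson r of log2 CPM with a prior count of 2. Counts of 3 or fewer in a library were taken as the detection floor, which covers counting error only. Transcript lengths for CPM per kb came from the annotation of GRCm38. Some listed genes are not reported here. Alternatives were median-of-ratios factors, no filter, a mean of at least 100 counts, the most abundant transcript, DESeq2 1.42.0, the replicate block, a fit of only the groups compared, and leaving out each library or each passage.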

Additional observations from a re-analysis of the deposited data

Results flagged for a closer look

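The effect of 2-DG on Sox9 differed from that of 0× glucose on the same controls, by 1.53 on the log2 scale (edgeR adjusted p = 0.0115 for the difference itself, which equals the comparison of 2-DG with 0× glucose). Sox9 was higher in 2-DG than in 0× glucose in 3 of 3 passages.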

How the results depend on the processing

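With the passage as a replicate block, 3 of the 6 tested genes changed in 2-DG against 1× glucose and 3 in 2-DG against 0× glucose, in place of 1 each, and the block changed no other call of these genes. With the most abundant transcript alone, 0 changed in 2-DG against 0× glucose. Leaving out single libraries or whole passages gave 0 to 2 changed genes in 2-DG against 1× glucose and 0 to 3 in 2-DG against 0× glucose, with 0 when the 4 libraries of passage 15 or of passage 16 were left out, which leaves 2 libraries per group. Between passages, 3 of 3 tested genes differed at a mean of at least 100 counts, which removes Foxd3, Snai2 and Msx2, and Foxd3 missed the threshold with the most abundant transcript alone (edgeR adjusted p = 0.0691). Sox9 and Foxd3 each have 1 transcript, so with the most abundant transcript their own counts were the same and only those of other genes differed. Sox9 passed the threshold in 14 of 16 alternatives for 2-DG against 1× glucose, at log2 fold changes of 1.42 to 1.94 (adjusted p 5.07e-06 to 0.137), and in 13 of 16 for 2-DG against 0× glucose. None of the values that passed a threshold changed sign. In 2-DG against 1× glucose the count over all genes was 7001 with the block, 653 with the most abundant transcript, 1896 with only the groups compared, 113 and 672 without passages 15 and 16, and 1734 to 2352 with 1 library left out. Against 0× glucose it was 7305 with the block, 775 with the most abundant transcript, 299 and 713 without passages 15 and 16, and 2051 to 2619 with 1 library left out. DESeq2 called 12 genes in 0× and 2 in 3× glucose, and none of these was 1 of the 6. In these comparisons other settings gave 0 to 3. The causes of these differences were not tested. The low counts of Foxd3, Msx2 and Snai2 limit what can be said of them.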

Other observations

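Zic1 had 2 annotated transcripts in the files, and the smaller part of its counts was given to the second one. Over the 3 libraries of a group this transcript had 9 counts in 1× glucose (0.402% of Zic1), 65 in 2-DG (3.11%), 72 in 0× glucose (3.44%) and 67 in 3× glucose (3.76%). At passages 13, 15 and 16 it had 0, 9 and 0 counts in 1× glucose and 0, 19 and 46 in 2-DG. In 0× glucose it had 60, 12 and 0, and in 3× glucose 36, 0 and 31. The sums thus rest on few libraries, and each group held a library at 0. The counts are StringTie estimates that share reads between transcripts, and no test was made. Zic4, which overlaps the start of Zic1 on the other strand, had 20 to 61 counts per library.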
